A study of Mus musculus with 4 samples.

Results

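The oligoadenylate synthetase family of the mouse was described in naive CD4+ T cells lacking TACI and in wild-type (WT) cells. Its members were the 8 genes Oas1a, Oas1b, Oas1c, Oas1g, Oas2, Oas3, Oasl1 and Oasl2, among 22180 genes with a probe set of their own in the table. They were found by gene symbol in the platform annotation, which gave 8 probe sets. Of these, 7 named a single gene and 1 was shared by Oas1a and Oas1g, so Oas1a had no value of its own. The family was selected on a measured value, the difference of Oas1b between TACI-/- and WT cells on these 4 arrays, and Oas2 and Oas3 were known to be lower as well. All differences between genotypes below are therefore descriptions and not tests of the family.

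The cells were sorted as CD4+ CD62Lhigh CD44low CD25- from spleens and lymph nodes of C57BL/6 mice, and expression was measured on 1-colour Affymetrix Mouse Gene 2.0 ST arrays. The groups were TACI-/- mice, without the receptor encoded by Tnfrsf13b, and WT mice, with 2 arrays each. Neither group was given a treatment in the labels. Age, sex, the construction of the deleted allele and the number of mice behind each pooled sample are not given in the sources used here, so the spread between arrays is that of these pools. Values are log2 units, in which a difference of 1 is a doubling, and the SD is over n = 2 arrays unless stated otherwise.

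Oligoadenylate synthetases are antiviral enzymes that interferons induce. On binding double-stranded RNA they join ATP into chains linked from 2' to 5', which set off the breakdown of viral and cellular RNA. Mice carry several Oas1 genes side by side, Oas2 and Oas3 with repeated synthetase domains, and the Oasl genes, whose proteins end in ubiquitin-like domains. Oas1b is the gene of the flavivirus resistance locus of mice. Its allele in C57BL/6 and many other laboratory strains carries a premature stop codon, and the RefSeq table of the C57BL/6J assembly GRCm38.p6 lists Oas1b as a transcribed pseudogene. A transcript value for Oas1b in these mice is thus not a value for a full-length protein. All 8 genes lie on chromosome 5, the Oasl genes next to each other and the other 6 in a second cluster that also holds Oas1d, Oas1e, Oas1f and Oas1h.

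The windows around the gene starts are shown because interferons act on such genes through the interferon-stimulated response element. RefSeq promoter windows (GRCm38.p6, from 250 bases before to 50 bases after the start) were at hand for 6 of the 8 genes, without Oas1b and Oas2. The core of this element, the letters GAAA, any 2 bases and GAAA again, searched on both strands, was present in 4 of the 6, against 3.44% of 32851 windows of the same length over all genes. Capitals mark the matches. In Oas1a and Oas1g a pair of matches overlaps by 4 bases, and in the Oas1c window a like pair lies on the opposite strand.
Oas1a (chr5:120907476-120907775, minus strand): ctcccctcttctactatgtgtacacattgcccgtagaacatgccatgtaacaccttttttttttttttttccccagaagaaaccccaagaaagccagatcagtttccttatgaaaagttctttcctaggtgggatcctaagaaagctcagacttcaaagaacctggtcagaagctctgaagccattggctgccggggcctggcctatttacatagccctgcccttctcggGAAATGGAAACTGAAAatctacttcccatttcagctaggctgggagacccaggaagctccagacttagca
Oas1g (chr5:120887564-120887863, minus strand): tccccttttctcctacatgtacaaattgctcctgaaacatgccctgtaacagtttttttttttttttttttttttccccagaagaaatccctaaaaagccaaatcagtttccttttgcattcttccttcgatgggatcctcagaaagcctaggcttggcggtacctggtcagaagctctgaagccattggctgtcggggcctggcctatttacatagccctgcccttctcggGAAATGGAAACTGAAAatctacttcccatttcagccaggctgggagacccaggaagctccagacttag
Oas1c (chr5:120812465-120812764, minus strand): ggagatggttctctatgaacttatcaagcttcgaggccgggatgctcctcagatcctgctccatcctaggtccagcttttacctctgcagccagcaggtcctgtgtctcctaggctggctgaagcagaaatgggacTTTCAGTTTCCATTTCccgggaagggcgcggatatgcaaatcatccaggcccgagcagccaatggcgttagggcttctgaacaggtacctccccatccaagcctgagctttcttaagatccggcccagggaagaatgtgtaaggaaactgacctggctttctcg
Oas3 (chr5:120777610-120777909, minus strand): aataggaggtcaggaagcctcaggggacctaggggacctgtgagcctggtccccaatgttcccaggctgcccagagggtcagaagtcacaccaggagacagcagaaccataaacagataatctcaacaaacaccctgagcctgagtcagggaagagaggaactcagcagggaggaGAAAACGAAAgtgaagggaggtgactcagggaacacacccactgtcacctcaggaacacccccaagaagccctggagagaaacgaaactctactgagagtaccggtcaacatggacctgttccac

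The Oas1a and Oas1g windows were 85.3% identical over 306 aligned columns and shared an unbroken run of 73 bases around the matches. The first match began 20 bases before the start of Oas1a and 18 bases before that of Oas1g. The Oas1c window is shown also for Oas1b, because the edge of the annotated Oas1b span lies inside it, 121 bases before the start of Oas1c. The nearer of the matches there lay 7 bases outside that edge, between the Oas1b span and the start of Oas1c. Read on the opposite strand, the Oas1c window shared the run CGGGAAATGGAAACTGAAA (chromosome 5, 19 bases) with the Oas1a window. In Oas3 the single match began 75 bases before the start. The windows of Oasl1 and Oasl2 did not hold these letters. The other motif of interferon signalling that was searched, the gamma-activated sequence TTCNNNGAA, was found in 1 of the 6 windows, that of Oas1a, and in 8.30% of all windows. These are matches of letters and not measured binding sites.

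**Figure D1:**
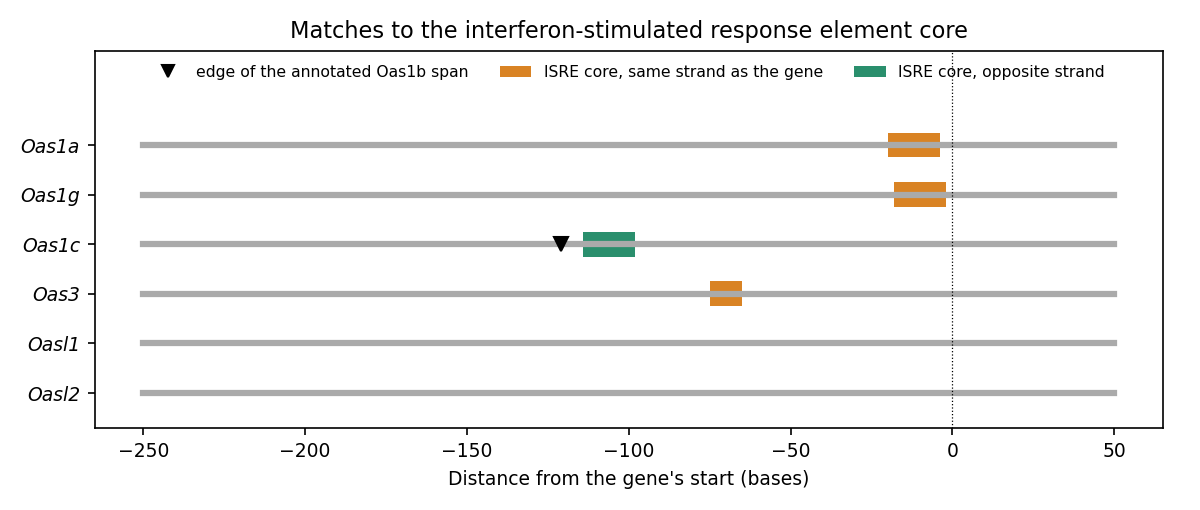
Positions of matches to the response element core (bars) in the 300-base windows of 6 family members, in bases from each gene's start (horizontal axis). Orange bars are on the gene's own strand and green bars on the opposite one, and the triangle marks the edge of the Oas1b span, 121 bases before the start of Oas1c.

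The low-value filter, the 40th percentile of single-gene probe sets on each array, was at 3.74, 3.77, 3.74 and 3.74 log2 units on TACI-/- arrays 1 and 2 and WT arrays 1 and 2. Of the 8 probe sets, 7 were above it on all 4 arrays and 1, that of Oas1g alone, was below it on all 4. The genotypes were compared with limma over the 13782 genes that passed the filter, with a threshold of 0.05 after Benjamini-Hochberg adjustment. The fit held 6 of the 8 genes, since Oas1a had only the shared probe set and Oas1g was too dim. Levels of different probe sets are not compared, because probes differ in how brightly they hybridise.

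Among the members that are or resemble the small Oas1 synthetases, Oas1b was lower in TACI-/- cells, while the arrays of the genotypes overlapped for Oas1c and for the probe set shared by Oas1a and Oas1g. Oas1b was at 4.62 and 4.53 log2 units on the TACI-/- arrays, against 5.80 and 5.70 on the WT arrays. The arrays of a genotype lay within 0.09 and 0.10 units of each other in TACI-/- and WT cells, and a gap of 1.08 units separated the genotypes. The level was 4.57 ± 0.07 in TACI-/- cells and 5.75 ± 0.07 in WT cells (SD, n = 2), a difference of -1.17 ± 0.13 (moderated SE), or 2.26-fold lower. Of the 13782 tested genes, 10 had a difference as low as this or lower, Oas1b included. In such bulk samples, fewer cells of a type with the transcript and less of it per cell cannot be told apart.

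Oas1b was the 1 member of 6 in the fit past the threshold in limma, where 0.138% of all tested genes were past it in either direction and 0.029% were lower. This is the value for which the family was chosen, and nothing is read from the count. Its limma adjusted p was 0.0482, close to the threshold, and lay between 0.0188 and 0.618 over the 14 alternative settings. It was under 0.05 in 4 of them. Without any 1 of the 4 arrays the difference was between -1.23 and -1.12, and the adjusted p between 0.314 and 0.452.

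Oas1c lies beside Oas1b, and its mouse protein is known to lack synthetase activity. It was at 4.66 and 4.78 log2 units on the TACI-/- arrays and 4.76 and 4.76 on the WT arrays. The TACI-/- arrays lay on either side of the WT arrays, with a difference of -0.04 ± 0.13 (SE).

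Oas1a and Oas1g encode active synthetases that are closely related. Their shared probe set was at 4.01 and 4.29 on the TACI-/- arrays and 3.75 and 4.62 on the WT arrays. The WT arrays spanned 0.87 units and enclosed both TACI-/- arrays, and the difference was -0.04 ± 0.29 (SE, from limma over the 15966 annotated probe sets past the filter). The probe set of Oas1g alone was at 2.29 and 1.99 in TACI-/- cells, with 2.74 and 2.52 in WT cells, below the filter throughout, so no change can be read from it. The 4 further Oas1 genes of the cluster, Oas1d, Oas1e, Oas1f and Oas1h, were also below the filter on all 4 arrays, with mean levels from 2.08 to 3.07 in TACI-/- cells and from 1.95 to 2.93 in WT cells.

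**Figure D2:**
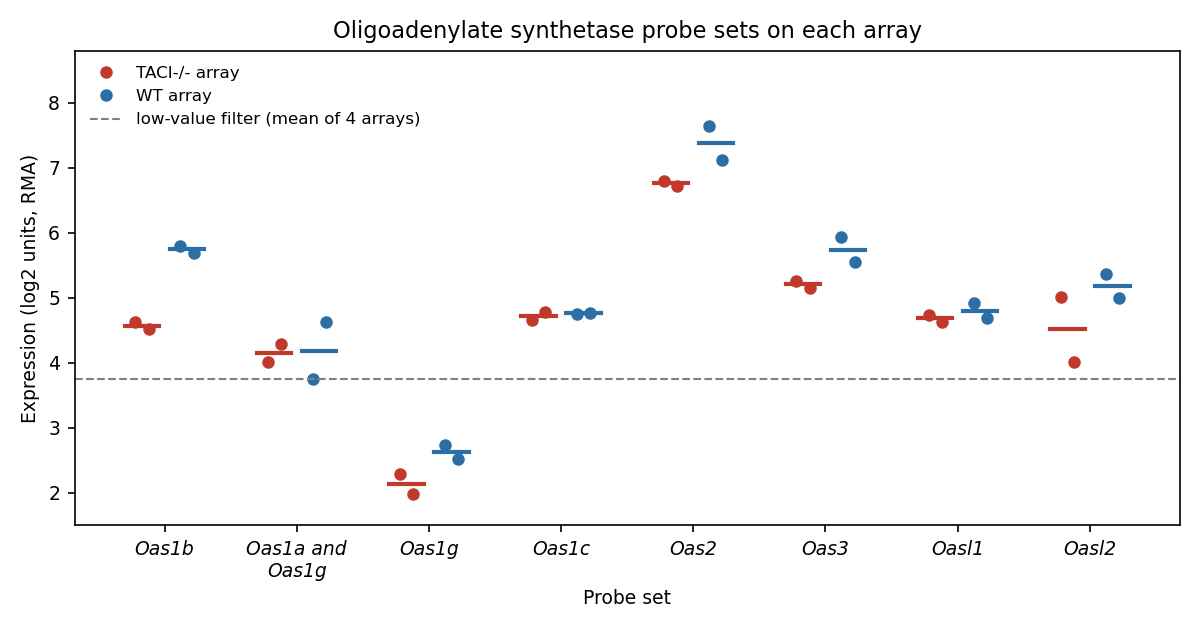
Expression of the 8 probe sets of the family in log2 units (vertical axis), with TACI-/- arrays in red and WT arrays in blue. Points are arrays, bars are means of 2 arrays and the dashed line is the low-value filter; for Oas1b the TACI-/- arrays are at 4.62 and 4.53 and the WT arrays at 5.80 and 5.70.

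The larger synthetases Oas2 and Oas3 were lower on both TACI-/- arrays than on both WT arrays, but neither passed the threshold. Oas2, which makes 2'-5'-linked chains as a dimer, was at 6.80 and 6.73 log2 units in TACI-/- cells, against 7.64 and 7.13 in WT cells. Its groups were 0.33 units apart while the WT arrays differed by 0.52, so the gap was smaller than the spread within WT. The difference was -0.62 ± 0.19 (SE), and -0.36 without WT replicate 1.

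Oas3, the member most responsive to long double-stranded RNA, was at 5.26 and 5.16 in TACI-/- cells, against 5.94 and 5.55 in WT cells. The groups were 0.29 units apart, less than the 0.39 units between the WT arrays. The difference was -0.54 ± 0.17 (SE), and -0.34 without WT replicate 1. For both genes the TACI-/- arrays were close together and WT replicate 1 was the high array.

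The synthetase-like genes did not separate the genotypes. Oasl1, whose mouse protein restrains translation of Irf7, was at 4.73 and 4.63 log2 units in TACI-/- cells, with 4.91 and 4.69 in WT cells. The groups overlapped, and the difference was -0.12 ± 0.14 (SE). It was -0.0048 without WT replicate 1, -0.23 without WT replicate 2 and -0.07 without TACI-/- replicate 2. Oasl2, which has synthetase activity in the mouse, was at 5.014 and 4.017 in TACI-/- cells, with 5.361 and 4.996 in WT cells. Its difference of -0.66 ± 0.32 (SE) rested on TACI-/- replicate 2. It was -0.16 without that array and -1.16 without TACI-/- replicate 1.

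Over the 6 members in the fit, all differences were negative, where 48.2% of all tested genes had a negative difference, and their median was -0.58, where that of all tested genes was 0.01. Both TACI-/- arrays were below both WT arrays for 3 of them, Oas1b, Oas2 and Oas3, as for 18.1% of all tested genes. The same 3 had an unadjusted limma p under 0.05, as had 3.84% of all tested genes in that direction. Since the members were chosen with this contrast known, these counts describe the family only. Without Oas1b, the other 5 had a median of -0.54. WT replicate 1 was above WT replicate 2 for 5 of the 6 members, with a median difference of 0.30 between these arrays, while over all tested genes that median was 0.0012.

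The genes with the pattern most like that of Oas1b over the 4 arrays were ranked. By the root mean square distance of values centred on each gene's own mean, the nearest were the immunoglobulin segment Igkv4-72 (0.073 log2 units), A630089N07Rik (0.081), Pnrc2 (0.116), E330033B04Rik (0.116) and the mitochondrial protein gene Apoo (0.135). Igkv4-72 was at 4.53 and 4.51 in TACI-/- cells, with 5.91 and 5.71 in WT cells. Pnrc2, a cofactor of nuclear receptors and of mRNA decay, was at 6.74 and 6.94 in TACI-/- cells, with 7.96 and 7.85 in WT cells. Apoo entered the fit through its WT values alone, 4.52 and 4.46. Its TACI-/- values, 3.67 and 3.48, did not reach the filter, so nothing is read from its direction or its distance. Of the other 5 tested members of the family, none was among these nearest genes. The distance contains the difference for which Oas1b was chosen. The smaller differences of the other members, from -0.66 to -0.04, already kept them out, so nothing is read from their absence. The 5 nearest genes lie on chromosomes 6, 16, 4, 15 and X, none on chromosome 5.

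Genes beside the clusters were set against the members by their order on chromosome 5. Of the 50 tested genes nearest to the Oas1, Oas2 and Oas3 cluster, 25 on each side, 0 passed the adjusted threshold in limma and 3 had an unadjusted p under 0.05 (6% of the 50, against 8.78% of all tested genes). These were Fbxw8, Ksr2 and Vsig10, with differences of 0.53, 0.46 and 0.50. Vsig10 passed the filter only through the TACI-/- arrays, at 3.79 and 3.81, and was below it on the WT arrays, at 3.18 and 3.42. Nothing is read from its direction. Negative differences were found for 13 of the 50, and their lowest was -0.24.

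The immediate neighbours on one side, Dtx1 and Rasal1, had differences of -0.08 ± 0.18 and 0.13 ± 0.14 (SE). Those on the other side, Rph3a and Ptpn11, had 0.02 ± 0.15 and 0.13 ± 0.14 (SE). Oas1b at -1.17 thus had Oas1c at -0.04 next to it.

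**Figure D3:**
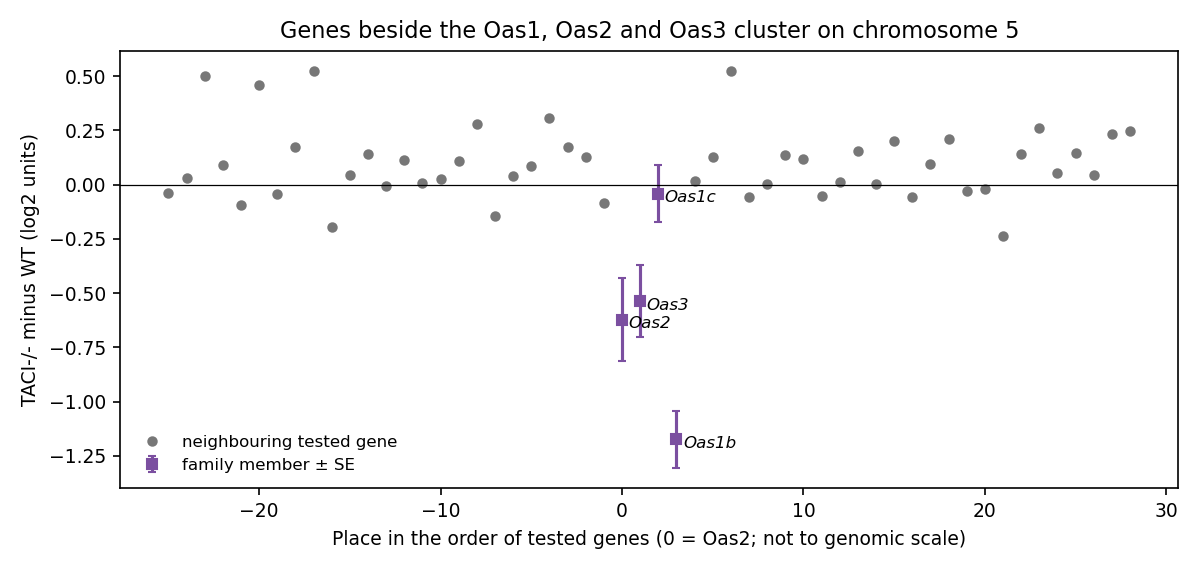
Difference between TACI-/- and WT cells in log2 units (vertical axis) of 4 members of the Oas1, Oas2 and Oas3 cluster (purple squares, error bars are moderated SE) and of 25 tested genes on each side (grey points), in gene order (horizontal axis, not to scale). The neighbours lie between -0.24 and 0.53, and Oas1b at -1.17.

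Around the Oasl genes, 0 of 50 neighbours passed in limma and 4 had an unadjusted p under 0.05, 2 lower and 2 higher in TACI-/- cells (8% of the 50). Tmem119, among the lower ones, passed the filter only through the WT arrays, at 4.01 and 3.91. It was below the filter in TACI-/- cells, at 3.46 and 3.41, so nothing is read from its direction. The nearest on one side were 2610524H06Rik and 1500011B03Rik, with differences of 0.49 ± 0.14 and -0.32 ± 0.15 (SE). The nearest on the other side were 2210016L21Rik and Sppl3, with -0.15 ± 0.15 and -0.17 ± 0.16 (SE). Pebp1 and Taok3 lie between the clusters and were counted in both sets of 50.

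The genes that act downstream of the synthetases were below the threshold of the test. Of the 3 tested genes of this arm, 0 passed in limma in either direction, and 0 had an unadjusted p under 0.05. Abce1, with a main role in ribosome recycling, was at 8.604 and 8.613 log2 units in TACI-/- cells, with 8.885 and 8.797 in WT cells. The phosphodiesterase gene Pde12, which degrades the 2'-5'-linked chains, had a difference of -0.04 ± 0.15 (SE). Akap7, the mouse gene for another such phosphodiesterase, was at 4.26 and 4.59 in TACI-/- cells, with 4.11 and 4.14 in WT cells.

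Other sensors and effectors of double-stranded RNA and of DNA had differences from -0.65 to 0.07, of which 10 were negative and 3 positive. Of 13 tested genes, 0 passed in limma. Before adjustment, p was under 0.05 for 3 genes, all lower in TACI-/- cells, and for 3.84% of all tested genes in that direction. The median difference was -0.09. The 3 were Ifit1 and Ifit2, which bind viral or cellular RNA and limit its translation, and Dhx58, which encodes the RNA sensor regulator LGP2. Their differences were -0.65 ± 0.22, -0.45 ± 0.13 and -0.45 ± 0.18 (SE). Ifit2 had close arrays, at 6.30 and 6.32 in TACI-/- cells, with 6.78 and 6.74 in WT cells. The kinase gene Eif2ak2 (PKR), which like the synthetases is switched on by double-stranded RNA, had 0.07 ± 0.17 (SE).

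The chain from the interferon receptor to the nucleus had differences on both sides of 0, from -0.23 to 0.34. Of 16 tested genes 0 passed in limma, 1 had an unadjusted p under 0.05, and the median difference was -0.02. The receptor chains Ifnar1 and Ifnar2 had -0.10 ± 0.13 and 0.09 ± 0.13 (SE). Stat2 and Irf9, partners in the factor that binds the response element, had -0.15 ± 0.15 and -0.04 ± 0.14 (SE).

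Irf7, which amplifies interferon production, had -0.09 ± 0.22 (SE), and the feedback inhibitor Usp18 had -0.19 ± 0.14 (SE). The largest differences of this list were positive. Irf8, at 4.25 and 4.23 in TACI-/- cells, with 3.89 and 3.92 in WT cells, had 0.34 ± 0.13 (SE). Irf1, a transcription factor of interferon responses, had 0.33 ± 0.14 and the inhibitor of cytokine signalling Socs1 0.24 ± 0.13 (SE).

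In the list of other interferon-induced antiviral genes, 15 of 20 were tested. Isg15, Mx1 and Mx2 did not pass the filter, and Ifi44 and Ifi27l2a had no probe set of their own. All 15 tested genes had a negative difference, as had 48.2% of all tested genes, with a median of -0.32. The cytidine deaminase Apobec3 alone passed in limma (lower in TACI-/- cells, difference -2.03 ± 0.18, SE). It was at 6.49 and 6.54 in TACI-/- cells, against 8.77 and 8.32 in WT cells. Before adjustment, p was under 0.05 for 5 of the 15, all lower, and for 3.84% of all tested genes in that direction. Rtp4, which had -0.50 ± 0.15, and Rsad2 (viperin, an antiviral radical enzyme), which had -0.40 ± 0.13 (SE), followed by size. WT replicate 1 was above WT replicate 2 for 12 of the 15 genes, with a median difference of 0.16 between these arrays. Values of several of these genes were known from the same arrays when the list was written, so the counts are no independent result.

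**Figure D4:**
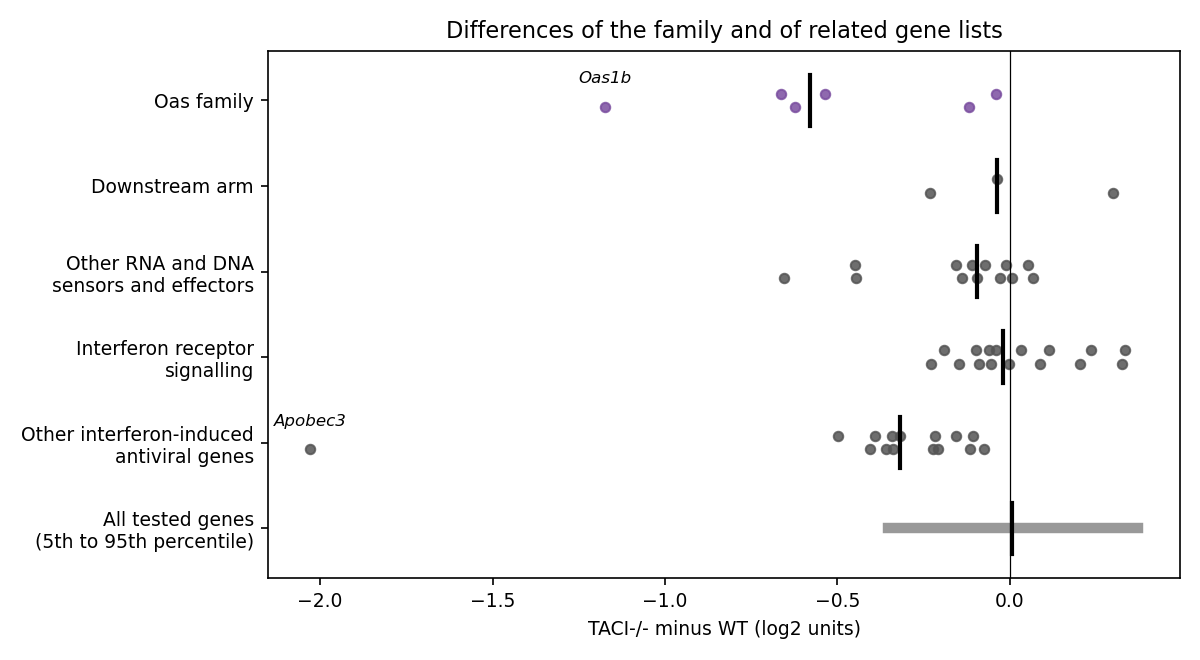
Difference between TACI-/- and WT cells in log2 units (horizontal axis) of the 6 tested family members and of the tested genes of 4 related lists. Points are genes and black bars medians. The grey bar spans the 5th to 95th percentile of all 13782 tested genes, from -0.35 to 0.37. The labelled genes Oas1b at -1.17 and Apobec3 at -2.03 lie outside it, as do Oas2, Oas3, Oasl2 and several genes of the lists.

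The targeted gene and the cell markers were read on the same arrays. Tnfrsf13b was below the filter on all 4 arrays, at 2.73 and 3.09 in TACI-/- cells, with 2.95 and 3.02 in WT cells, so it does not check the labels. Of the naive CD4 T cell markers, 6 of 8 had a probe set of their own, all 6 above the filter, and 5 of the 6 differences were negative. Cd4 had -0.04 ± 0.14, Ccr7 0.03 ± 0.14 and Lef1 -0.04 ± 0.13 (SE). Both TACI-/- arrays were below both WT arrays for Il7r (-0.48 ± 0.15), Cd3d (-0.30 ± 0.14) and Cd3e (-0.21 ± 0.14, SE), as for 18.1% of all tested genes. The genes of the markers that the sort kept low had positive differences, Cd44 with 0.19 ± 0.14 and Il2ra (CD25) with 0.29 ± 0.18 (SE). Of the CD8 T cell markers, Cd8a was below the filter on all 4 arrays. Cd8b1 was above it, at 6.11 and 5.73 in TACI-/- cells, against 6.55 and 6.59 in WT cells.

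Markers of other cells that express synthetases are given as sums of log2 values over the markers of each list that passed the filter, a choice made after their values were seen. No change can be read from the dimmer ones. The 5 of 8 B cell markers that passed summed to 23.2 and 22.5 in TACI-/- cells, against 20.8 and 21.8 in WT cells. All 5 had differences above 0, where 48.2% of all tested genes had a negative one. The 2 of 5 NK cell markers that passed, Klrd1 and Prf1, summed to 11.8 and 12.0 in TACI-/- cells, against 12.6 and 12.7 in WT cells. Klrd1 had a difference of -0.87 and Prf1 0.08. With the dim Ncr1 and Klrb1c included, the NK cell sums overlapped, at 18.035 and 18.858 in TACI-/- cells, against 18.355 and 19.998 in WT cells.

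The 3 of 6 plasmacytoid dendritic cell markers that passed summed to 15.2 and 14.4 in TACI-/- cells, against 15.6 and 14.6 in WT cells. Of these, Ly6c2 was lower on both TACI-/- arrays, with a difference of -0.41 ± 0.16 (SE). Tcf4 was higher on both, with 0.19 ± 0.15 (SE), and Bst2, whose arrays overlapped, had -0.08 ± 0.25 (SE). Siglech, the most specific member of the list, reached the filter on 1 of 4 arrays. The 5 of 6 monocyte and macrophage markers that passed summed to 23.4 and 22.8 in TACI-/- cells, against 23.3 and 22.6 in WT cells. Lyz2 and Cd68 of this list had -0.49 and 0.71.

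With dim markers left out, the sums of the B cell and NK cell markers did not overlap between the genotypes, and those of the other 2 lists did. The separation of the NK cell sums came from Klrd1. With the dim markers included, the B cell sums alone among these lists did not overlap, at 30.5 and 29.5 in TACI-/- cells, against 27.7 and 28.3 in WT cells. The sums over all measured naive, sorted and CD8 markers did not overlap between the genotypes either. Separation is common with 2 arrays per genotype. Of the 13782 tested genes, 2501 were lower and 2829 higher on both TACI-/- arrays than on both WT arrays. None of the naive, sorted, CD8, B cell, NK cell, plasmacytoid or myeloid markers passed in limma after adjustment. Before adjustment, limma p was under 0.05 for 1 of 6 naive, 0 of 2 sorted and 1 of 1 CD8 markers in the fit. So it was for 1 of 5 B cell, 1 of 2 NK cell, 1 of 3 plasmacytoid and 2 of 5 myeloid markers. Over all tested genes the share was 8.78%. The part of these markers in the values of the family was not tested.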

How the data were processed

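Expression was measured in 4 samples, 2 TACI-/- and 2 WT, grouped by the genotype in their titles. The deposited table held 41345 probe sets on a log2 scale, from 0.94 to 13.2. Per the submitters' processing notes the authors used RMA and Partek, with no version or role given. The base is taken from RMA and the range of the values. The precision is limited by the number of arrays, which have no read depth.

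The platform annotation gave 1 symbol to 23521 probe sets, several to 1814 and none to 16010. A gene was represented by its single-symbol probe set with the highest mean, and tested where at least 2 arrays reached that array's 40th percentile of such probe sets. The 13782 genes were fitted two-sided in R 4.3.3, using limma 3.58.1 with genotype as the only term and eBayes. Unadjusted p-values were used to count genes and, beside the clusters, to pick some of those named. The fit was tested on simulated data. Probe sets with several symbols were fitted in a second limma run over 15966 probe sets.

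The members, lists and tests were chosen with earlier results of these data known. Genes were named by a rule: all members, the 3 largest differences per list with fixed key genes, the 5 nearest profiles, the neighbouring genes, the targeted gene and cell markers. Eif2ak2, Fbxw8, Ksr2, Vsig10, Tmem119, and the cell markers given with values of their own were singled out after their values were seen. Gene order and names came from RefSeq (GRCm38.p6), and the array table names no build. Alternatives were other filters, centring, quantile normalization again, the mean over probe sets, all probe sets, no variance moderation or an intensity trend, a replicate block, and leaving out each array.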

Additional observations from a re-analysis of the deposited data

How the results depend on the processing

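The difference of Oas1b was negative under all 14 alternatives, from -1.23 to -1.12. Its call was not stable. The count of members past the threshold, 1 in the reported limma fit, was 0 with no filter on low values, with the filter at the 20th percentile, with quantile normalization again, with every annotated probe set, with no variance moderation, with the replicate block, and without any 1 of the 4 arrays. With no filter, 4 of 7 members, the dim Oas1g among the 7, had an unadjusted limma p under 0.05, against 1594 of 22180 genes. The filter at the 20th percentile gave 3 of 6, against 1406 of 18220. Quantile normalization again gave 3 of 6, against 1229 of 13782 genes. Every annotated probe set gave 3 of 7, against 1303 of 15966 probe sets. No variance moderation gave 1 of 6, against 986 of 13782 genes, and the replicate block 4 of 6, against 1132 of 13782. The count over all genes, 19 as reported, was 3 with no filter, 45 with the filter at the 60th percentile, 46 with an intensity trend, 0 with no variance moderation and 0 without any 1 array, where between 721 and 1145 genes had an unadjusted p under 0.05 without an array and 986 without moderation. More or fewer genes enter the adjustment under other filters; otherwise the cause was not tested. The median difference of the members ranged from -0.79 to -0.33 without 1 array, at -0.33 without TACI-/- replicate 2, -0.35 without WT replicate 1 and -0.79 without WT replicate 2. Oas2, Oas3, Oasl1 and Oasl2 stayed negative under all 14 alternatives, while Oas1c was at 0.02 without TACI-/- replicate 1 and between -0.10 and -0.04 under the other 13.

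Replicate numbers are shared by the genotypes only as numbers. Deviations of same-numbered arrays from their group means correlated at -0.03 across genes, which are not independent replicates. With the replicate block 13 genes passed, against 19 without it, the difference of Oas1b was -1.17 and that of the median member -0.58. Signal over background limits Oas1g and the further Oas1 genes, which were too dim on all arrays to show a difference.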
